A study of Mus musculus with 6 samples.

Results

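AP-1 and other immediate early genes were followed in mouse soleus muscle across 6 arrays. The set was named as 10 genes: the AP-1 subunits Jun, Junb, Fos, Fosb, Fosl2 and Atf3, the transcription factors Egr1 and Myc, and the stress-response genes Ier3 and Dusp1. A gene was measured where a feature of the array carried its symbol and no other, and 9 of the 10 had such a feature, 1 each, among 30142 genes named in this way on the array. Junb shared its feature with Prdx2, and no value is given for it. The set was assembled with the difference between the genotypes already known, and its genes were chosen by their log2 differences between cKO and Control on these same 6 arrays. Those values are therefore given as a description, with no test. Where 3 values are given for a group, they are in the order of its replicates 1 to 3.

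Soleus, a slow-fibred postural muscle of the calf, was taken from both legs of male mice aged 39 to 41 weeks, and each mouse gave 1 array. The 3 Control mice were littermates labelled wild type. The 3 cKO mice were labelled DMP1 Cre Mbtps1 knockout, so Mbtps1, which encodes site-1 protease, was removed wherever Cre under Dmp1 regulatory sequence was active. Dmp1 is a gene of osteocytes, the cells embedded in bone, and Dmp1-driven Cre is known to act in some other cells as well. The sources used here do not say whether the Control mice carried the Cre or floxed alleles. By its title and design, the series set the muscle of these knockout mice against that of their littermates.

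Immediate early genes are transcribed within minutes of a stimulus such as contraction, stretch, injury or a growth factor, without new protein synthesis. Jun and Fos family proteins pair through leucine zippers to form AP-1, which binds DNA and drives later genes. Fos and Egr1 are classic targets of serum response factor and its ETS partners, downstream of the ERK kinases, while Jun is driven largely through its own AP-1-like sites, downstream of the JNK and p38 kinases. Dusp1 protein removes phosphate from these kinases and limits the response. In skeletal muscle these genes respond to exercise, to stretch and to handling of the tissue.

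The promoters of Jun, Dusp1 and Fos are shown because the first 2 genes were higher on every cKO array and the third was not. They are the 250 bases before the RefSeq start of each gene on assembly GRCm38.p6, read 5′ to 3′ on the strand of the gene, with motif matches in capitals. They lie at chr4:95052223-95052472 (minus strand) for Jun, chr17:26508473-26508722 (minus strand) for Dusp1 and chr12:85473640-85473889 (plus strand) for Fos.
Jun: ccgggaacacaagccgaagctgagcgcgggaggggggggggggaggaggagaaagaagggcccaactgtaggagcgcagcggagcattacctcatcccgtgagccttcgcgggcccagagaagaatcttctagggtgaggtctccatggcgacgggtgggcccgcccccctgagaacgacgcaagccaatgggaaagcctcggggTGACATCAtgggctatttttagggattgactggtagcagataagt
Dusp1: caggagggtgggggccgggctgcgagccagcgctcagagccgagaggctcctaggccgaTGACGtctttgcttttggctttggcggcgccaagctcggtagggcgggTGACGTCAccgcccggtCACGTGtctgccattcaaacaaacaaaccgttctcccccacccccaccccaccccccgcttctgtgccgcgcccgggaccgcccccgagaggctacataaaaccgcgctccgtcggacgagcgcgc
Fos: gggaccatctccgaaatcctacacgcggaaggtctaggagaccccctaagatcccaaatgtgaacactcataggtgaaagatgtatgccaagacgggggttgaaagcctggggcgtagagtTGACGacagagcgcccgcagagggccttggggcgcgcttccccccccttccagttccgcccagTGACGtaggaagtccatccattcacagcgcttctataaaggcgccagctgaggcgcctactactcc

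A set of 6 motifs was searched on both strands: the AP-1 site TGANTCA, the cAMP response element TGACGTCA and its core TGACG, which it contains, the AP-1-like octamer TGACATCA, the E-box CACGTG and the CArG box bound by serum response factor. Jun held TGACATCA from 45 to 38 bases before the start, a match found in 2.93% of the 32851 promoter windows of the same length. Dusp1 held TGACGTCA from 143 to 136 bases before the start, found in 1.55% of windows, another core TGACG from 191 to 187, and CACGTG from 126 to 121, found in 6.02%. Fos held the core TGACG from 129 to 125 and from 66 to 62 bases before the start, found in 17.8% of windows. The AP-1 site, in 6.75% of windows, and the CArG box, in 1.47%, had no match within these windows of the 3 genes. Bases further upstream were not searched, so a site there would not have been found. Of the 9 measured genes, 7 had a window in the table. Fosb and Atf3 held 1 core TGACG each, and Ier3 and Fosl2 held none of the 6 motifs. A match describes the letters only.

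Jun, Dusp1, Myc and Ier3 were higher on all 3 cKO arrays than on all 3 Control arrays. Atf3 was higher on average with overlap, Fos, Egr1 and Fosb overlapped, and Fosl2 was slightly lower on all cKO arrays. So 5 of the 9 members had groups that did not overlap, 4 higher and 1 lower, where 11.0% of all 33334 features tested did so, 8.95% higher and 2.05% lower. Since the members were chosen with this contrast in view, nothing is read from that count. Values are log2 signals, on which 1 unit is a doubling, and levels are not compared between genes because each feature has its own probes.

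**Figure D1:**
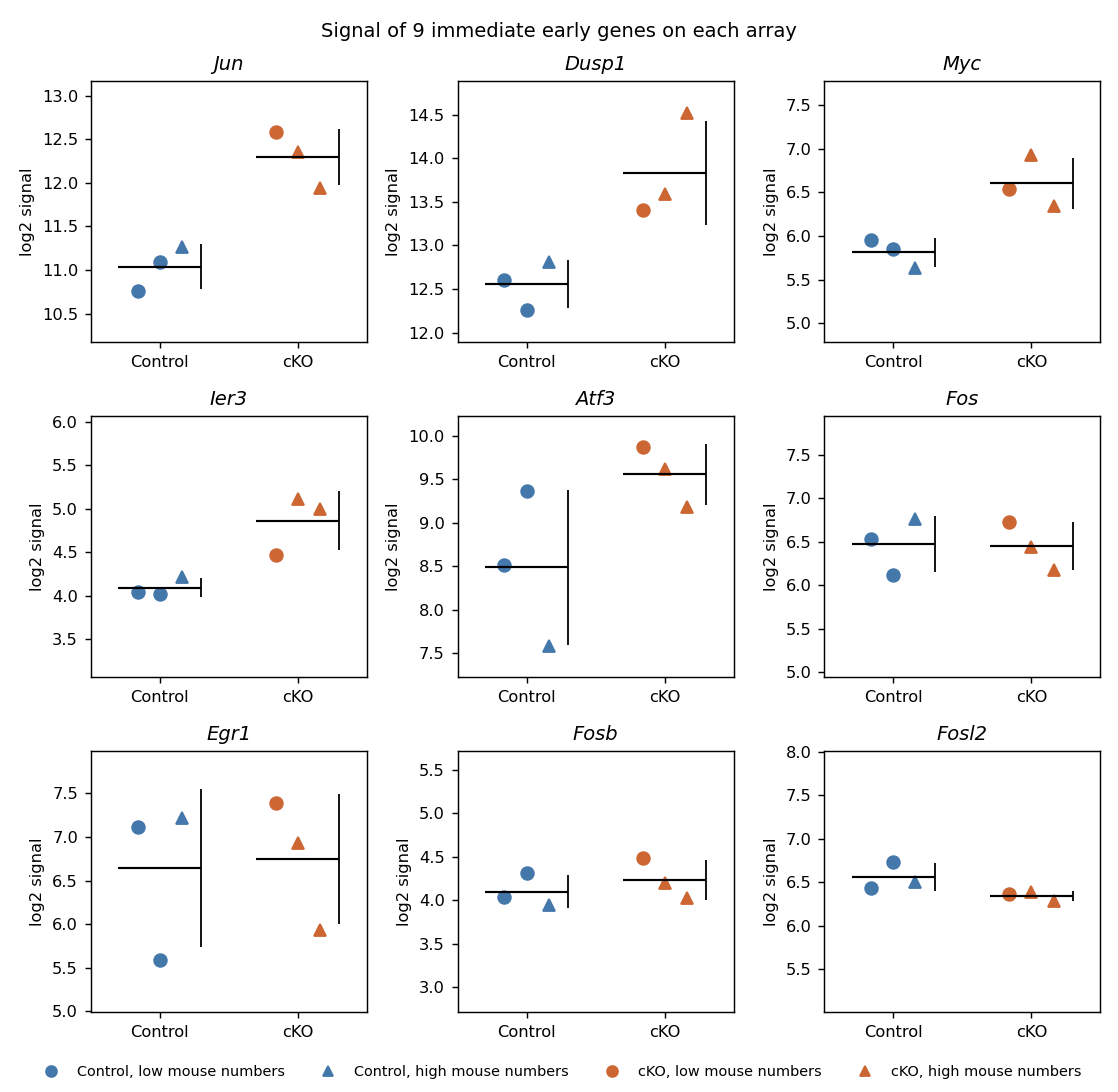
Log2 signal of each of the 9 measured genes on each array, Control in blue and cKO in orange, with circles for low and triangles for high mouse numbers; every panel spans 3 log2 units. Horizontal lines are group means and vertical lines their SD (n = 3). The groups do not overlap for Jun, Dusp1, Myc and Ier3, and for Fosl2 they are separated by 0.046 log2 units, with cKO below.

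Jun encodes the main DNA-binding partner in AP-1. It read 10.8, 11.1 and 11.3 on the Control arrays and 12.6, 12.4 and 11.9 on the cKO arrays. The lowest cKO array lay 0.68 log2 units above the highest Control array. The Control mean was 11.04 ± 0.26 (SD, n = 3) and the cKO mean 12.30 ± 0.32 (SD, n = 3), which differ by 1.26 log2 units (SE 0.25), or 2.39-fold.

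Atf3, a stress-induced factor that pairs with Jun proteins, had the widest range over the arrays, 2.28 log2 units. It stood at 8.51, 9.36 and 7.59 on the Control arrays and at 9.86, 9.61 and 9.18 on the cKO arrays. Control 2 lay above cKO 3, so the groups overlapped, and the 3 Control arrays spread much more widely than the cKO arrays. The difference was 1.07 log2 units (SE 0.45), and it was 0.62 without Control 3, the lowest array.

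The Fos family did not follow Jun. Fos, the partner of Jun in the most active AP-1 dimer, was at 6.53, 6.12 and 6.77 on the Control arrays and 6.73, 6.44 and 6.17 on the cKO arrays. Both groups covered nearly the same range, and the difference was -0.03 log2 units (SE 0.23). Fosb, a Fos relative that accumulates with repeated stimulation, stood at 3.95 to 4.31 in Control and 4.02 to 4.48 in cKO, close to the array medians of 4.004 to 4.37, with a difference of 0.13 (SE 0.17) that was 0.0073 without cKO 1. Fosl2, which encodes Fra-2, was at 6.43, 6.74 and 6.50 on the Control arrays and 6.36, 6.39 and 6.28 on the cKO arrays. Every cKO array was below every Control array, with a difference of -0.21 (SE 0.14), or -0.12 without Control 2, and 0.046 log2 units between the nearest arrays. Fosl1, the remaining Fos gene, was below the filter, at 3.05 to 3.24 in Control and 3.07 to 3.37 in cKO.

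Egr1, a zinc finger factor induced by the same pathway as Fos, varied widely between mice of one genotype. It was at 7.12, 5.59 and 7.22 on the Control arrays and 7.39, 6.93 and 5.93 on the cKO arrays. Control 2 and cKO 3 were low and the other 4 arrays high, and the same 2 arrays were the lowest for Fos. The difference of 0.10 log2 units (SE 0.54) was smaller than the SD of 0.91 in Control and 0.75 in cKO.

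Dusp1, the MAP kinase phosphatase, was at 12.6, 12.3 and 12.8 on the Control arrays and 13.4, 13.6 and 14.5 on the cKO arrays. The groups were 0.60 log2 units apart at their nearest arrays, and cKO 3 stood well above the rest. The difference was 1.28 log2 units (SE 0.34), or 2.43-fold, and 0.94 without cKO 3.

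Myc, the growth-promoting transcription factor, was at 5.96, 5.85 and 5.63 on the Control arrays and 6.54, 6.93 and 6.35 on the cKO arrays, with a gap of 0.39 between the groups. Its difference was 0.79 log2 units (SE 0.19), or 1.73-fold. Ier3, a small protein that modulates survival signals, was at 4.05, 4.02 and 4.22 on the Control arrays and 4.47, 5.11 and 5.001 on the cKO arrays, a difference of 0.77 (SE 0.19). The Control values of Ier3 lay near the median of all features, so its level there is near the dim end of the scale. Ier3 and Fosb exceeded the array median on 1 Control array and all 3 cKO arrays, and so entered the tested features mainly through cKO. The other 7 members were above the median on all 6 arrays.

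In order of difference the members ran Dusp1, Jun, Atf3, Myc, Ier3, Fosb, Egr1, Fos and Fosl2. Dusp1, Jun and Atf3 lay within 1 standard error of each other, as did Myc and Ier3. Fosb, Egr1 and Fos lay within 1 standard error of 0.

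The 4 genes Jun, Dusp1, Myc and Ier3 were then set against Fos and Egr1, after each gene was centred on its own mean over the 6 arrays. The mean of the 4 genes was -0.55, -0.58 and -0.41 on the Control arrays and 0.36, 0.61 and 0.57 on the cKO arrays. These groups were wide apart relative to their spread, with a difference of 1.03 log2 units (SE 0.09 over arrays). The choice of these genes on the same arrays fixed that direction, and it also bears on the size and the spread. The mean of Fos and Egr1 was 0.25, -0.72 and 0.41 on the Control arrays and 0.48, 0.11 and -0.53 on the cKO arrays. That pair split each genotype, and its difference was 0.04 (SE 0.46). The first mean minus the second was -0.80, 0.14 and -0.82 on the Control arrays and -0.12, 0.50 and 1.09 on the cKO arrays, a difference of 0.99 (SE 0.47). Here the groups overlapped, because Control 2 lay above cKO 1. The imprecision of the contrast came from the Fos and Egr1 side, whose SD was 0.61 in Control and 0.51 in cKO against 0.09 and 0.13 for the 4 genes. These SDs are not on a like footing, since 1 is of a mean of 4 chosen genes and the other of a mean of 2.

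**Figure D2:**
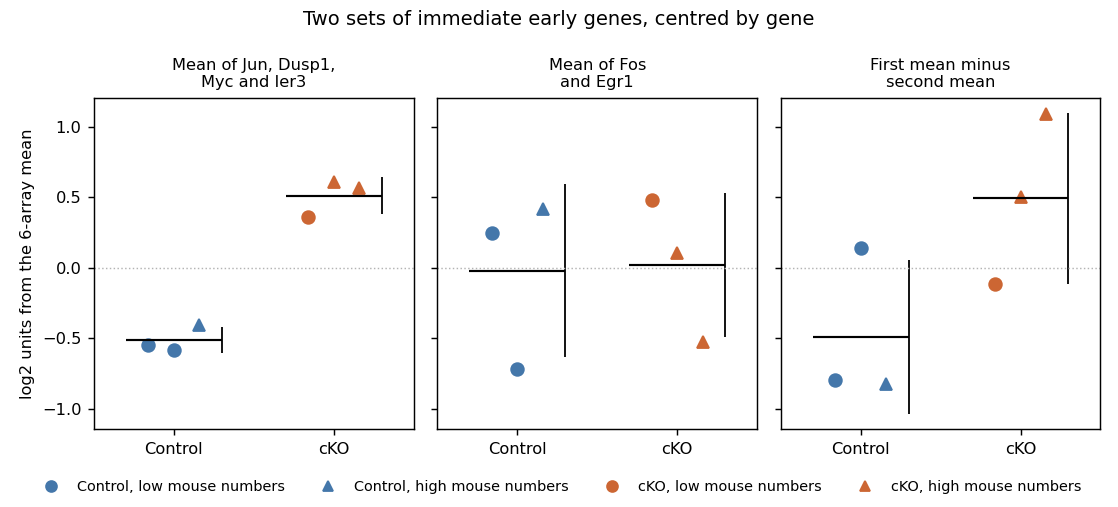
Mean of Jun, Dusp1, Myc and Ier3 (left), mean of Fos and Egr1 (middle) and the first minus the second (right) on each array, in log2 units from each gene's mean over the 6 arrays, with group means and SD (n = 3). The left panel has Control from -0.58 to -0.41 and cKO from 0.36 to 0.61, while both groups cross 0 in the middle panel.

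The mouse numbers in the labels fell in 2 ranges, 715, 716 and 733 (Control 1, Control 2 and cKO 1) and 776, 779 and 780 (Control 3, cKO 2 and cKO 3). The labels did not say what a range stands for. Within the low range 1 cKO array faced 2 Control arrays, and within the high range 2 cKO arrays faced 1 Control array. Jun differed by 1.66 log2 units in the low range and 0.89 in the high range, Dusp1 by 0.97 and 1.25, Myc by 0.64 and 1.01, and Ier3 by 0.44 and 0.84. Atf3 differed by 0.93 and 1.81, Fosb by 0.31 and 0.16, and Fosl2 by -0.22 and -0.16. These 7 genes kept the sign of their difference in both ranges. For Jun, Dusp1, Myc, Ier3 and Fosl2 that was fixed in advance, because their groups did not overlap over the 6 arrays. Fos differed by 0.40 in the low range and -0.46 in the high range, and Egr1 by 1.03 and -0.79. For both genes the sign turned, so the small difference over all 6 arrays averaged opposite values. The difference of the 4 genes from Fos and Egr1 was 0.21 in the low range and 1.62 in the high one, and the contrast rested largely on the high range.

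**Figure D3:**
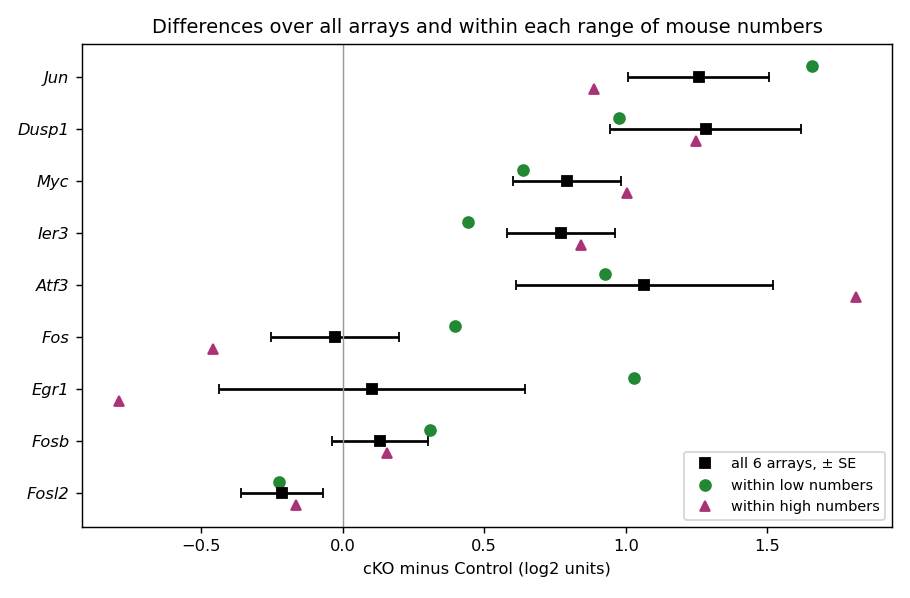
Difference between cKO and Control in log2 units for the 9 genes, over all 6 arrays with limma's SE (squares) and within the low (circles) and high (triangles) mouse numbers. Jun, Dusp1, Myc, Ier3 and Atf3 lie to the right of 0 in both ranges, while Fos and Egr1 lie on opposite sides.

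The contrast of the number ranges was not used to choose the members, and it was tested with genotype in the model. With limma, 0 of the 9 members passed an adjusted p of 0.05, and 0 of 33334 features did, with 2 members and 4511 features (13.5%) at an unadjusted p under 0.05. The 2 members were Atf3, which differed by -0.91 log2 units from low to high numbers (SE 0.35, limma adjusted p = 0.352), and Ier3, which differed by 0.38 (SE 0.14, limma adjusted p = 0.341). For the other 7 members the difference ran from -0.30 for Fosb to 0.51 for Dusp1. None of the 9 had ranges that did not overlap, against 19.8% of all features. Jun, Dusp1, Myc, Ier3 and Fosl2 could not have, because their genotype groups did not overlap and each range held both genotypes. Nothing is therefore read from that count.

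The targeted gene gave no check on the labels. Mbtps1 stood at 7.05 to 7.39 in Control and 7.11 to 7.77 in cKO, and which part of the gene its feature reads is unknown here. Over all features tested, limma passed 0 between cKO and Control at an adjusted p of 0.05, with 1501 (4.5%) at an unadjusted p under 0.05. A second rule asked for an unadjusted p under 0.01 together with at least a 1.5-fold change, and 223 features (0.669%) met it. The median difference was 0.07 log2 units, and 65.8% of features were higher in cKO. Of 18334 named genes tested, taken at 1 feature each, 12.0% had every cKO array above every Control array and 0.791% met the second rule. The array of cKO 1 had the highest median and the lowest weight in limma, 0.254.

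Other genes of the same pathways were mostly a little higher in cKO on the deposited scale, as were most genes on the array. The 7 pathway lists named 116 genes, of which 107 had their own feature and 93 were bright enough to test, and 72 of the 93 were higher in cKO and 21 lower. In limma 0 passed an adjusted p of 0.05, with 7 at an unadjusted p under 0.05, and 2 met the second rule, both higher. All cKO arrays lay above all Control arrays for 17 of the 93, or 18.3%, and below for 0. Of all named genes tested, 67.0% were higher in cKO, 12.0% had every cKO array above every Control array and 0.791% met the second rule. The median difference of the 93 genes was 0.16 log2 units against 0.07 for all features. After quantile normalization 58 of the 93 were higher, with a median of 0.07. The median of all features was -0.0038 on that scale and 0.02 after centring on array medians.

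Among the other AP-1 genes, 9 of 13 were tested, with 6 higher, 3 lower and a median difference of 0.08, which ran from 0.03 without Control 1 to 0.15 without cKO 3, near that of all features. Jund, the constitutive member of the Jun family, was at 8.58, 8.85 and 8.55 on the Control arrays and 9.34, 9.06 and 9.60 on the cKO arrays. The groups did not overlap, with a difference of 0.68 log2 units (SE 0.21, limma adjusted p = 0.999), and it was 0.63 in the low range of mouse numbers and 0.78 in the high range. Mafk, a small Maf protein, differed by 0.36 (SE 0.18, limma adjusted p = 0.999). The dimerisation partner Atf2 differed by 0.05 and the AP-1 repressor Jdp2 by -0.01.

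Other immediate early genes gave 27 of 28 tested, 20 higher and 7 lower, with a median of 0.14 log2 units that was 0.04 after quantile normalization, where 16 were higher, and 0.08 without cKO 1, where 18 were. Trib1, a pseudokinase, Ccn2, a secreted matrix protein, and the synaptic gene Arc were the 3 whose groups did not overlap. These were 3 of 27, where 12.0% of all named genes tested had every cKO array above every Control array. Arc was at 4.73 to 4.78 in Control and 5.55, 4.84 and 4.81 on the cKO arrays, so its difference came mostly from cKO 1. Trib1 was at 5.71, 5.65 and 5.84 on the Control arrays and 6.03, 6.18 and 6.83 on the cKO arrays, a difference of 0.61 (SE 0.23, limma adjusted p = 0.999), and Ccn2 differed by 0.45 (SE 0.19). The close relatives of Egr1 differed by 0.10 for Egr2, -0.0040 for Egr3 and 0.05 for Egr4. They were dim, at 4.44 to 5.06 over all arrays, where the array medians were 4.004 to 4.37.

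The kinases and nuclear factors upstream were tested for 22 of 26 genes, with 16 higher, 6 lower and a median of 0.15 log2 units, or 0.07 after quantile normalization and 0.08 without cKO 1. Crem, a cAMP-responsive factor, differed by 0.31 (SE 0.14), and Map2k2, a kinase that activates ERK, by 0.31 (SE 0.16), each with limma adjusted p = 0.999. The groups did not overlap for these 2 and for the p38 kinase genes Mapk11 and Mapk12, at 0.16 and 0.31. For Mapk11 the nearest arrays, Control 2 and cKO 2, both read 5.17. These were 4 of 22 genes, where 12.0% of all named genes tested had every cKO array above every Control array. Srf itself differed by -0.14 and the JNK gene Mapk8 by 0.05. Relatives of Dusp1 were higher for 6 of the 6 tested of 9, where 67.0% of all named genes tested were. Their median difference was 0.32 log2 units. After quantile normalization 4 of the 6 were higher and the median was 0.21. Dusp10, which acts on p38 and JNK, differed by 0.37 (SE 0.17) with groups that did not overlap, and Dusp16, which acts on JNK, by 0.44 (SE 0.21). Dusp6, which acts on ERK, differed by 0.0006.

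The partners and relatives of Myc were higher for 5 of 7 tested, with a median of 0.13 log2 units. That median was -0.01 after quantile normalization, with 3 of 7 higher, and -0.03 without cKO 1. Mxd1, which competes with Myc for Max, differed by 0.30 (SE 0.15) and Mga by 0.19 (SE 0.22). Of 16 growth genes known as Myc targets 15 were tested, 12 higher and 3 lower, with a median of 0.20 log2 units, which was 0.13 after quantile normalization and 0.0996 without cKO 1, where 10 were higher. For 5 of the 15 genes the groups did not overlap, with cKO higher. Of all named genes tested, 12.0% had every cKO array above every Control array. These 5, Nolc1, Odc1, Bop1, Polr1b and Cdk4, were named after their values were seen, apart from Nolc1. Nolc1, a nucleolar assembly protein, was at 7.41, 7.74 and 7.54 on the Control arrays and 8.41, 8.23 and 8.17 on the cKO arrays. It met the second rule with a difference of 0.71 (SE 0.17, limma unadjusted p = 0.00450, adjusted p = 0.999). Nolc1 met that rule under 8 of 15 alternatives, and not after quantile normalization, with a replicate block, or without Control 1, Control 3 or any of the cKO arrays in turn. Odc1, the entry enzyme of polyamine synthesis, differed by 0.48, and the nucleolar abundant transcripts Ncl and Npm1 by -0.29 and -0.20.

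AP-1 target genes were tested for 7 of 14. The metalloproteinase genes Mmp3, Mmp9 and Mmp13, Timp1 and Il6 were below the filter, and Ccnd1 and Spp1 had no feature of their own. All 7 tested targets were higher, where 67.0% of all named genes tested were higher on the deposited scale. After quantile normalization 6 of the 7 were higher. The median difference as deposited was 0.23 log2 units. That median was 0.44 without cKO 2 and 0.59 with the 75th percentile filter, under which fewer genes were tested. Tnfrsf12a, which encodes the TWEAK receptor Fn14, had the largest difference in the 7 pathway lists. It was at 8.57, 8.91 and 7.57 on the Control arrays and 10.2, 10.1 and 10.9 on the cKO arrays, with every cKO array above every Control array. The difference was 2.03 log2 units (SE 0.40, limma unadjusted p = 0.00169, adjusted p = 0.999), 1.44 in the low range of mouse numbers and 2.91 in the high range. Tnfrsf12a met the second rule under all 15 alternatives run, where its difference ran from 1.64 to 2.31 and its limma adjusted p from 0.244 to 0.9999. Cd44, a matrix receptor, differed by 0.59 (SE 0.21), also without overlap. These were 2 of 7 genes, where 12.0% of all named genes tested had every cKO array above every Control array.

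**Figure D4:**
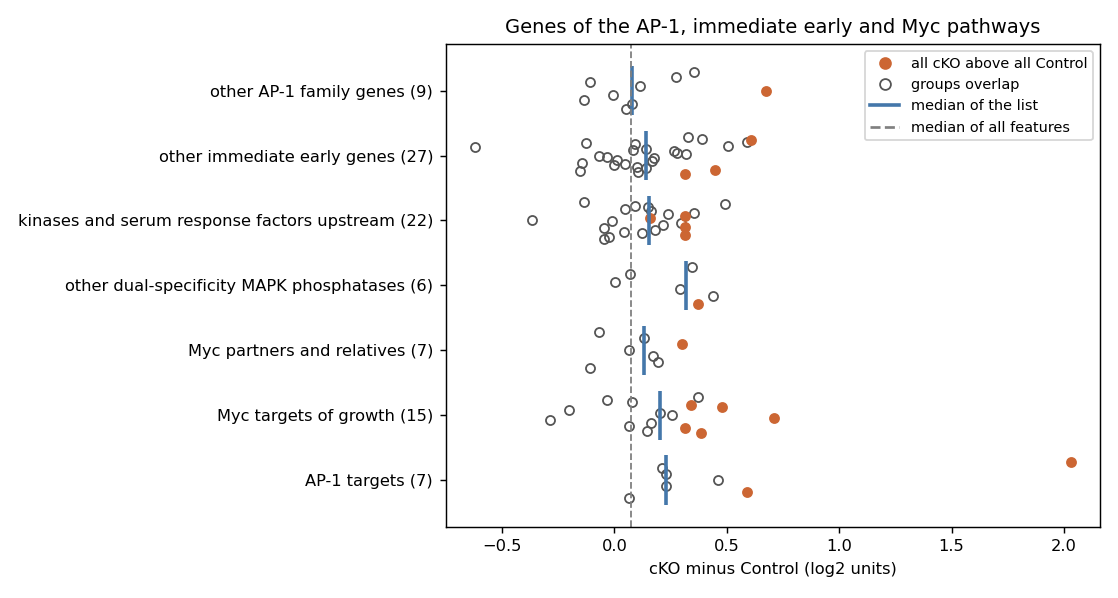
Difference between cKO and Control in log2 units for each tested gene of 7 pathway lists (number tested in brackets), filled where all cKO arrays lie above all Control arrays. Thick bars are list medians and the dashed line is the median of all features, 0.07; Tnfrsf12a stands apart at 2.03.

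Genes with the pattern nearest to Jun and to Fos were found by the root mean square difference of gene-centred values over the 6 arrays, among 12580 other named genes. Nearest to Jun were Dynlt1-ps1 (0.21 log2 units), Gstp-ps (0.22), Scarna9 (0.24), Klhl40 (0.25) and Ube2d-ps (0.27). The 3 with "ps" in their symbols are pseudogenes, whose probes may also read their parent genes, Scarna9 is a small RNA of Cajal bodies and Klhl40 a sarcomere protein gene. Klhl40 was at 10.3, 10.9 and 11.1 on the Control arrays and 12.2, 11.5 and 11.6 on the cKO arrays. Nearest to Fos were Zfp936 (0.06), Ifih1 (0.07), Brd1 (0.07), Ighv5-16 (0.08) and Rbm39 (0.08), and Fos itself varied over 0.64 log2 units, against 1.83 for Jun. The patterns compared include the difference between the groups.

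Marker lists of other cell types in the dissected muscle are given by their counts and list means. On the deposited scale 67.0% of all named genes tested were higher in cKO. Tendon cell markers were higher for 10 of 10 tested, and for 9 of 10 after quantile normalization. Their list means, 5.53 to 6.27 on the Control arrays and 6.79 to 6.99 on the cKO arrays, did not overlap. The groups did not overlap for 5 of the 10 genes, where 12.0% of all named genes tested had every cKO array above every Control array. The tendon markers Mkx and Cilp2 were below the filter. Satellite cell markers were higher for 5 of 6. Their list means, 6.18 to 6.25 in Control and 6.35 to 6.48 in cKO, did not overlap either. Their median difference was 0.10, or 0.02 after quantile normalization, and 0 of the 6 genes had groups that did not overlap. Macrophage markers were higher for 7 of 8, with overlapping means of 6.18 to 6.77 and 6.43 to 7.33. Endothelial markers were lower for 7 of 7, with means of 9.55 to 10.8 in Control and 9.77 to 9.90 in cKO. Fibroblast markers were higher for 4 of 8, and smooth muscle and pericyte markers for 6 of 8, both with overlap. Neutrophil markers were dim for 4 of 6, and of 6 bone and osteocyte markers only Bglap passed the filter, while Dmp1 and Sost did not. Skeletal muscle markers, which define the labelled tissue, stood at 16.7 to 16.8 in Control and 16.7 to 16.9 in cKO. The part of these cells in the differences of the immediate early genes was not tested, and in whole muscle more cells of a type and more RNA per cell cannot be told apart.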

How the data were processed

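Total RNA from soleus, 100 ng per mouse, was made into biotinylated cDNA with an Affymetrix whole-transcript kit, per the labels' protocols. The table the authors deposited gave each array a column, read here as log2 values from the span of 1.92 to 19.9. The sources used here name no build, log base, scaling, summarisation or background correction. Of 72688 features, 6732 held no value. Of the other 65956, 30604 carried 1 distinct symbol, 2146 several and 33206 none. Symbols came from the platform annotation, and 827 were updated through Entrez identifiers matched to RefSeq (22818 features). A gene with several features was represented by the brightest on average. Features above the median of their array on at least 3 arrays were tested (33334).

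Linear models used limma 3.58.1 (R 4.3.3; lmFit and trended eBayes), two-sided and unblocked, with Benjamini-Hochberg adjustment over all features tested. Standard errors of single genes are limma's. The fit was tested on simulated data. Tables and plots used Python 3.11.15, pandas 2.3.3 and matplotlib 3.10.9.

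Groups and replicate numbers came from sample titles. The labels name 1 mouse per array, and the number of arrays limits the precision. The members and gene lists were chosen with earlier results of these data known. Named were all measured members, list genes past a call rule or otherwise the 2 with the smallest p per list, and the 5 genes nearest to Jun and to Fos. Atf2, Jdp2, Arc, Egr2 to Egr4, Fosl1, Mapk11, Mapk12, Srf, Mapk8, Dusp6, Ncl, Npm1, Cd44 and those so marked were named outside this rule.

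The alternatives covered scaling (quantile normalization, centring on array medians), the dim-feature filter (none, or the 75th percentile), untrended and robust eBayes, array weights, blocks for replicate number or mouse number range, averaging all features of a gene, each range alone, and leaving out each array.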

Additional observations from a re-analysis of the deposited data

How the results depend on the processing

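Over all features, the count past an adjusted p of 0.05 was 0 in limma and ran from 0 to 14 with 1 array left out, 14 being the value without Control 3. The count past an unadjusted p of 0.01 and a fold of 1.5, 223 as deposited, was 130 after centring on array medians and 823 with array weights, and it ran from 95 (without cKO 3) to 960 (without Control 3) with 1 array left out. The 2 pathway genes past that rule became 1 after quantile normalization and 1 with the replicate block, were 3 with eBayes without a trend, where Jund passed too (limma unadjusted p = 0.00931), and ran from 1 to 2 with 1 array left out. The difference of Jun, Dusp1, Myc and Ier3 from Fos and Egr1, 0.99 log2 units, was 0.21 in the low range of mouse numbers and 1.62 in the high one, and 0.69 to 1.30 with 1 array left out. Same-numbered mice did not vary together in every pair (correlations of their deviations 0.128, -0.204 and 0.205). With 3 mice a group these correlations cannot show whether the mice were paired, and the labels do not say. The signs of Jun, Dusp1, Myc, Ier3, Atf3, Fosb and Fosl2 held under all 15 alternatives run on them, and those of Fos and Egr1 under 11 and 9. Many of these alternatives could not turn a sign. The groups of Jun, Dusp1, Myc, Ier3 and Fosl2 did not overlap, so neither a left-out array nor a single range could do so. The replicate block and the averaging of features left the difference of every member unchanged. Sizes changed between the alternatives. The difference of Jun, 1.26 as deposited, ran from 0.89 in the high range of mouse numbers to 1.66 in the low range. That of Ier3, 0.77 as deposited, ran from 0.44 in the low range to 0.98 with array weights. That of Atf3, 1.07 as deposited, ran from 0.62 without Control 3 to 1.81 in the high range. Fos and Egr1 were at 0.40 and 1.03 in the low range and -0.46 and -0.79 in the high range. Fosb was 0.13 as deposited and 0.0073 without cKO 1, and Fosl2 was -0.21 and -0.12 without Control 2. A range block on quantile-normalized values, and leaving arrays out of the range comparison, were added after the data were seen. With 3 arrays a group, dim genes such as Ier3 and Fosb are measured near the lower end of the scale.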

Other observations

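Some early-response genes outside the 10 named ones stood apart on single arrays, and these were chosen after their values were seen. Nr4a2, an orphan nuclear receptor gene, was at 8.10 in Control 2 against 6.12 to 6.48 on the other 5 arrays. Its relative Nr4a3 was at 7.70 in cKO 2 against 5.21 to 6.77 elsewhere. Zfp36, whose protein destabilises early-response transcripts, was at 5.87 in Control 2 and 6.53 in cKO 3 against 6.85 to 7.27 on the other arrays, and Ier2 was at 5.11 and 5.05 against 5.46 to 6.14. Fos and Egr1 were also lowest on these arrays. Other early-response genes were highest there: Klf4 at 8.23 and 8.35 against 7.22 to 8.05, Gadd45g at 7.40 and 7.40 against 6.38 to 7.08, and Rhob at 7.98 and 7.95 against 7.39 to 7.69. Gadd45b, a stress-response gene, was lowest in cKO 3, at 6.28 against 7.06 to 7.91.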
